A study of Homo sapiens with 9 samples.

Results

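The comparison of HT29 cells given CRC-MPS CM with HT29 cells in serum-free medium (Control) was described over all genes of its deposited table. HT29 is a human colorectal adenocarcinoma line. The table held 10019 rows, of which 14 carried a gene name that a spreadsheet had turned into a date, and the remaining 10005 named genes were used, out of 11664 genes named in any of the 3 tables of the series. A gene entered the table only if its unadjusted p in the authors' own test was under 0.05, so every gene below had already passed a filter on this same contrast, and a gene that was not listed cannot be called equal between the groups. The CRC-MPS CM group had 3 libraries, from HT29 cells treated for 24 h with conditioned medium (CM) labelled as from adipose tissue. By the study's methods this medium came from a microphysiological system (CRC-MPS) in which minced epiploic adipose tissue (EPAT), the fat appendages of the colon, and HT29-GFP cancer cells lay between sheets of EPAT-derived stromal cells (ESC). The Control group had 3 libraries, from HT29 cells that were, by their labels, serum starved for 24 h. The study's methods give other times, overnight starvation of cancer cells before experiments and starvation over several days to align them in the division cycle, without saying which applied to these libraries, and the labels do not say whether the cells given CRC-MPS CM were starved beforehand. The study's text gives the tissue as from obese donors, which the labels do not state. By the same methods the system was kept in DMEM with fetal bovine serum, and its medium was diluted with serum-free McCoy's medium before use. Control medium held no serum, and whether it held any DMEM is not stated. Effects of serum, of the base medium, of the adipose tissue, of the stromal cells and of the HT29-GFP cells cannot be told apart here. The libraries were labelled as biological replicates 1 to 3, with nothing on whether they came from separate donors, batches of medium or cultures, so the p-values measure the spread between these libraries, which may be technical.

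Cells deprived of serum leave the division cycle. Growth factor receptors then signal less to PI3K and AKT, FOXO transcription factors move to the nucleus, and the inhibitors of cyclin-dependent kinases accumulate. When growth signals return, cyclin E and E2F1 switch on the genes of DNA replication. The DREAM complex, a repressor, releases the genes of mitosis, and the MYB complex switches them on. The demand for ribosomes, nucleotides, chaperones and proteasomes also rises. Serum also carries lipoprotein cholesterol, and sterols hold the transcription factor SREBP2, encoded by SREBF2, in the endoplasmic reticulum, away from the genes of cholesterol synthesis. NRF2 induces enzymes that detoxify electrophiles, and interferon-stimulated genes are the antiviral program that interferons switch on. These statements are background and not results of these libraries.

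The values per library fit TPM, transcript levels corrected for length and scaled to a common total in each library. The listed genes summed to between 746453 and 751858 TPM per library. Read depth was not given, so the counting error behind each value is unknown. Across listed genes the log2 levels of libraries of 1 group correlated at 0.9946 to 0.9974 and those of libraries of different groups at 0.9443 to 0.9568. A gene was called at an adjusted p under 0.05 and a difference over 1.5-fold, with limma on log2(TPM + 1) and Benjamini-Hochberg adjustment as if 60000 genes had been tested. On this scale the change of a low gene is understated. All differences below are CRC-MPS CM minus Control on this log2 scale, and a positive difference means a higher level with CRC-MPS CM. Exact permutation of 3 libraries against 3 has a smallest two-sided p of 0.1, so no gene was tested that way.

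Called genes were 3934 of the 10005, which is 39.3% of those listed, with 1981 called higher (19.8%) and 1953 called lower (19.5%) with CRC-MPS CM. The counts called in each list below are to be read beside these shares of all listed genes. The lists and their members were chosen with earlier results of these data known. How many members were listed or called is therefore not independent evidence about a pathway. The largest changes ran downward. A difference over 4-fold was found in 29 genes called higher and 68 called lower, and one over 8-fold in 5 and 11. The libraries of the groups did not overlap in 8946 genes (89.4%), with all CRC-MPS CM libraries above all Control libraries in 4540 genes and below in 4406. No called gene overlapped. Among listed genes as a whole the median difference was -0.01 and the median size of the difference 0.51.

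**Figure D1:**
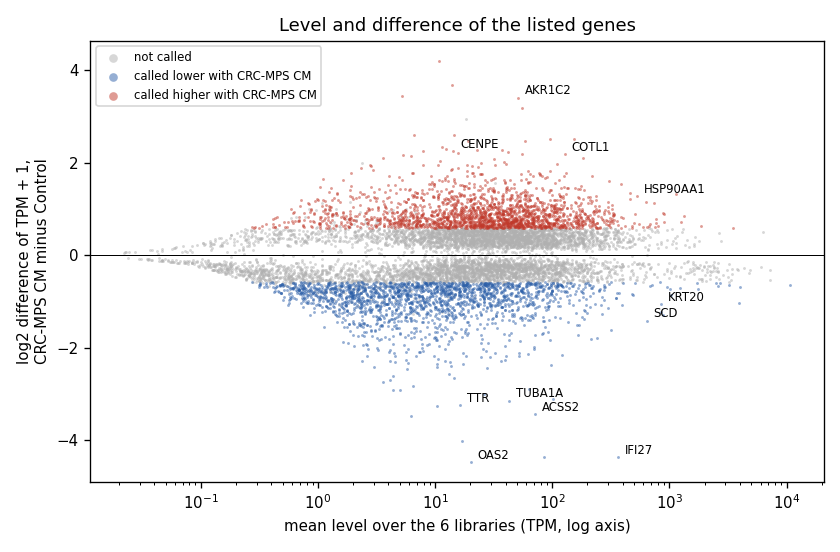
Each point is 1 of the listed genes, placed by its mean level over the 6 libraries (TPM, log axis) and by its log2 difference of TPM + 1, CRC-MPS CM minus Control (genes of chromosome Y are not drawn). The thin band around 0 shows the filter by which the table was made. Among the points below 0 OAS2 lies at -4.47, and among those above 0 AKR1C2 lies at 3.41 and SNORD11 (not labelled) at 4.21.

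**Figure D2:**
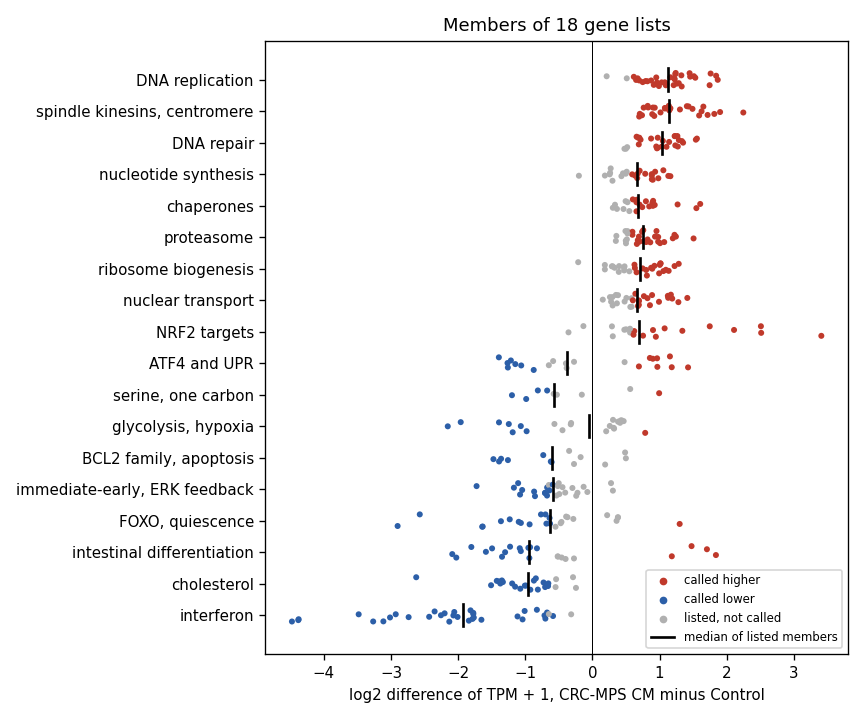
Each point is 1 listed member of 1 of 18 gene lists, at its log2 difference of TPM + 1 (CRC-MPS CM minus Control), red where called higher, blue where called lower and grey where not called, with a black line at the median of the listed members. The replication, spindle kinesin and centromere, and DNA repair members lie right of 0 (medians 1.13, 1.14 and 1.03), and the cholesterol and interferon members left of it (medians -0.96 and -1.92).

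The genes chosen for the copying of DNA were higher with CRC-MPS CM almost throughout. All 36 members of the replication list were listed, 34 were called higher and 0 lower, against 19.8% and 19.5% of all listed genes, and their median difference was 1.13. Every subunit of the MCM2-7 helicase, which unwinds DNA at the fork, was among those called higher. MCM10, which helps to start that helicase, stood at 22.3, 21.2 and 24.3 TPM with CRC-MPS CM, against 6.56, 4.6 and 5.37 TPM in Control. Its groups lay far apart, at a ratio of means of 4.1 and a difference of 1.87 ± 0.12 (SE) (limma, adjusted p = 0.00011). POLE2, a subunit of DNA polymerase epsilon, stood at 20.2, 20.2 and 25.1 TPM with CRC-MPS CM, against 5.94, 5.04 and 5.06 TPM in Control, and no library of a group came near those of the other. DSCC1, of the complex that loads the sliding clamp for sister chromatid cohesion, averaged 83.7 ± 4.98 TPM with CRC-MPS CM and 24.2 ± 4.41 TPM in Control (SD, n = 3 each here and below). TIPIN, of the fork protection complex, averaged 38.7 ± 3.51 TPM with CRC-MPS CM and 10.8 ± 0.739 TPM in Control. The members not called were CDT1, which brings the MCM helicase to origins, at 40.1, 35.2 and 39 TPM with CRC-MPS CM, against 37.5, 33.5 and 27.7 TPM in Control, and GINS4, a helicase subunit, at 5.25, 6.26 and 4.45 TPM with CRC-MPS CM, against 3.26, 3.19 and 3.78 TPM in Control. CDT1 overlapped between the groups, and GINS4 did not.

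The sequence upstream of POLE2 is shown as the example of an E2F site in this list. The letters TTTNNCGC were searched on both strands of 300 bases around each RefSeq transcription start (250 bases before it and 50 after), on build GRCh38.p14. They occurred in 20 of 38 promoters of the replication genes (52.6%, from 20 of 31 genes with a promoter in the table), against 6.89% of all 35116 promoters. The POLE2 window (chr14:49688165-49688464, minus strand) held 2 matches, in capitals.
POLE2: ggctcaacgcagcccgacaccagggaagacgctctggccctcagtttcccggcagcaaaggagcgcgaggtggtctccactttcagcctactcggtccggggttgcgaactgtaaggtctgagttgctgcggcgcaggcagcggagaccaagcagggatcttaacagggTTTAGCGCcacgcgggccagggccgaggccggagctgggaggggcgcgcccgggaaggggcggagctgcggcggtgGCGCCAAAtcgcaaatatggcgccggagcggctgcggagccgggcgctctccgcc

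The listed motors of the spindle and proteins of the centromere were higher. All 28 members of this list, which was drawn up with earlier results known, were called higher, with a median difference of 1.14. CENPE, the kinesin that carries chromosomes to the metaphase plate, had the largest difference of the list. It was also measured by qPCR in the study, there against CM of ESC and not against Control. Here it stood at 22, 25 and 25.9 TPM with CRC-MPS CM, against 4.79, 4.13 and 4.07 TPM in Control, so that the CRC-MPS CM libraries lay at 5.62 times the Control mean, with a difference of 2.25 ± 0.09 (SE) (limma, adjusted p = 5.5e-05). KIF20B, a kinesin of the cleavage furrow and midbody, stood at 33.1, 39.2 and 38.8 TPM with CRC-MPS CM, against 9.26, 8.07 and 10.2 TPM in Control. CENPK, which links the centromere to the kinetochore, averaged 97.8 ± 7.85 TPM with CRC-MPS CM and 27.1 ± 2.56 TPM in Control, and KIF14, a kinesin of late cytokinesis, averaged 14.8 ± 1.32 TPM with CRC-MPS CM and 3.81 ± 0.417 TPM in Control. HMMR, a spindle protein, stood at 61.8, 70.2 and 77.8 TPM with CRC-MPS CM, against 13.9, 12.9 and 15.5 TPM in Control. HMMR was among the largest increases of genes averaging at least 10 TPM. In each of these genes the lowest CRC-MPS CM library exceeded the highest Control library by a wide margin. Kinesins as a whole family moved both ways. Of 28 listed kinesin genes, some of them also in the list above, 13 were called higher and 7 lower, with a median difference of 0.48, and after GC centring 12 and 3, with a median of 0.14. The 7 called lower, named after their values were seen, were KIF12, KIF13B, KIF19, KIF21B, KIF3C, KIF7 and KIFC3. ANLN, the anillin that organizes the contractile ring, averaged 97.9 ± 6.36 TPM with CRC-MPS CM and 32.2 ± 3.54 TPM in Control.

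KIF20B is shown for the cell cycle homology region, the letters TTTGAA to which the DREAM and MYB complexes bind. The letters were present in 15 of 25 promoters of this list (60%, from 15 of 24 genes), against 15.2% of all promoters and 0 of 38 promoters of the replication list. A CCAAT box stood in 72% of them, against 34.6% of all promoters. The KIF20B window (chr10:89701340-89701639, plus strand) held 2 matches, both in capitals.
KIF20B: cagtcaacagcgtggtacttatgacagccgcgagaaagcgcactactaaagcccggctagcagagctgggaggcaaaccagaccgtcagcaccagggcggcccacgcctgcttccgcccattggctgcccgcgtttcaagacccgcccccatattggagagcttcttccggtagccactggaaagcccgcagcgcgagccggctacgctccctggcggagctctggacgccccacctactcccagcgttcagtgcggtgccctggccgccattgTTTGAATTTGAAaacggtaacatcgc

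Genes of DNA repair by recombination, of the Fanconi anemia pathway and of mismatch repair were higher in the same libraries. Of 27 members, 24 were called higher and 0 lower (median difference 1.03). XRCC2, a recombination factor, averaged 22.4 ± 2.19 TPM with CRC-MPS CM and 6.99 ± 1.3 TPM in Control. MSH6, which recognizes mismatches, averaged 70.9 ± 4.3 TPM with CRC-MPS CM and 23.8 ± 3.06 TPM in Control, and BLM, the helicase of Bloom syndrome, averaged 23.3 ± 0.694 TPM with CRC-MPS CM and 8.59 ± 1.3 TPM in Control. RAD54L, a motor protein of recombination, averaged 31.1 ± 1.47 TPM with CRC-MPS CM and 11.8 ± 1.8 TPM in Control. All 3 CRC-MPS CM libraries were above all Control libraries in these genes. Among chromatin genes, 9 of 21 listed members were called higher and 1 lower. UHRF1, which guides the maintenance methyltransferase to newly copied DNA, averaged 58.5 ± 2.2 TPM with CRC-MPS CM and 18.4 ± 2.57 TPM in Control, and HELLS, a remodeler that aids the same step, averaged 45.9 ± 2.91 TPM with CRC-MPS CM and 14.2 ± 1.69 TPM in Control. The histone methyltransferase SUV39H2 averaged 35.5 ± 3.58 TPM with CRC-MPS CM and 12.7 ± 0.841 TPM in Control. The gene called lower was KDM7A, a histone demethylase, at 3.9 ± 0.818 TPM with CRC-MPS CM and 7.92 ± 1.16 TPM in Control.

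Regulators of entry into S phase moved in both directions. Of 28 members, 18 were listed, 5 were called higher (27.8%) and 4 lower (22.2%). These shares were not far from the 19.8% and 19.5% of all listed genes. E2F1, the activator of S phase genes, stood at 51.8, 50.7 and 46.6 TPM with CRC-MPS CM, against 27.8, 19.8 and 22.6 TPM in Control, and CDC25A, the phosphatase that activates CDK2, averaged 24.1 ± 0.421 TPM with CRC-MPS CM and 9.13 ± 1.47 TPM in Control. CCNE1, the cyclin that binds CDK2, averaged 19.99 ± 0.839 TPM with CRC-MPS CM and 12.1 ± 2.11 TPM in Control, and SKP2, the ubiquitin ligase subunit that degrades the inhibitor p27, averaged 47.5 ± 2.56 TPM with CRC-MPS CM and 22.9 ± 4.93 TPM in Control. Against these, the CDK inhibitor gene CDKN1A (p21) stood at 28.1, 32.4 and 37.3 TPM with CRC-MPS CM, against 109.6, 124 and 96.4 TPM in Control, a difference of -1.73 ± 0.13 (SE) (limma, adjusted p = 0.00017), and CDKN1C (p57) at 4.18, 3.82 and 3.09 TPM with CRC-MPS CM, against 13.1, 10.6 and 11.6 TPM in Control. Both inhibitors were lower in every CRC-MPS CM library than in any Control library. CDKN2B (p15) averaged 19.2 ± 1.75 TPM with CRC-MPS CM and 35 ± 3.51 TPM in Control, and CCNG2, a cyclin linked to arrest, averaged 32.2 ± 2.94 TPM with CRC-MPS CM and 51.8 ± 4.38 TPM in Control. CDKN1B (p27) was not called, at 38.4 ± 4.08 TPM with CRC-MPS CM and 33.2 ± 3.9 TPM in Control. Of 9 listed genes of the MYC network, which did not include MYC itself, none was called higher and 3 were called lower. MXD4, a MAX partner that represses MYC targets, averaged 19.99 ± 1.89 TPM with CRC-MPS CM and 54.7 ± 3.48 TPM in Control, and MYCL averaged 3.94 ± 0.349 TPM with CRC-MPS CM and 8.16 ± 0.542 TPM in Control.

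Synthesis of nucleotides and of serine went opposite ways. Of 25 listed members of purine and pyrimidine synthesis, 15 were called higher and none lower. PRPS1, which makes the ribose phosphate donor, stood at 70, 76.7 and 72.1 TPM with CRC-MPS CM, against 32.4, 33 and 30.7 TPM in Control. PAICS, of the purine ring pathway, averaged 312 ± 21.6 TPM with CRC-MPS CM and 149 ± 6.34 TPM in Control, TYMS, which makes thymidylate, averaged 219 ± 6.54 TPM with CRC-MPS CM and 100.3 ± 18.2 TPM in Control, and UMPS, which makes UMP, averaged 78.1 ± 6.2 TPM with CRC-MPS CM and 39 ± 2.01 TPM in Control. The groups were apart in each. The list of serine and folate metabolism had 1 member called higher and 4 lower of 9 listed. PHGDH, the first enzyme of serine synthesis, stood at 52.7, 51.7 and 53.6 TPM with CRC-MPS CM, against 106, 146 and 118 TPM in Control, and PSAT1, the next, averaged 161 ± 17.7 TPM with CRC-MPS CM and 284 ± 40.2 TPM in Control. These were lower with CRC-MPS CM, while MTHFD1, the cytosolic folate enzyme, averaged 97.6 ± 1.94 TPM with CRC-MPS CM and 48.6 ± 3.98 TPM in Control and was called higher.

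The machinery that makes, folds and destroys proteins was higher in several lists. Of 30 listed proteasome subunits, 22 were called higher and none lower, and PSMA3, of the catalytic core, averaged 258 ± 9.97 TPM with CRC-MPS CM and 90.4 ± 7.24 TPM in Control. Of 22 listed chaperones and co-chaperones, not all of them cytosolic, 15 were called higher and none lower. HSPH1, a nucleotide exchange factor for HSP70, stood at 459, 461 and 449.6 TPM with CRC-MPS CM, against 154, 145 and 149 TPM in Control, and HSP90AA1, the inducible HSP90, at 730.3, 772 and 752 TPM with CRC-MPS CM, against 315, 317 and 302 TPM in Control. HSPE1, the lid of the mitochondrial chaperonin, averaged 574 ± 15.6 TPM with CRC-MPS CM and 196 ± 21 TPM in Control. These 3 genes had no overlap between the groups. Nuclear pore and transport genes were called higher in 17 of 30 and lower in none, with CSE1L, the exporter of importin alpha, at 271 ± 15.6 TPM with CRC-MPS CM and 101 ± 1.51 TPM in Control. Splicing factors were called higher in 13 of 31 and lower in none, with SNRPA1, of the U2 particle, at 218 ± 8.31 TPM with CRC-MPS CM and 97.2 ± 1.96 TPM in Control. Ribosome biogenesis genes were called higher in 18 of 30 and lower in none, with NOP58, a core protein of box C/D particles, at 176 ± 9.29 TPM with CRC-MPS CM and 71.8 ± 9.9 TPM in Control.

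Ribosomal proteins differed by compartment. Of 70 listed genes for mitochondrial ribosomal proteins, 30 were called higher and none lower, with a median difference of 0.50. Of 66 listed genes named as cytosolic ribosomal proteins, 4 were called higher and 3 lower, fewer than the 19.8% and 19.5% of all listed genes. The 4 called higher were the paralogs RPL22L1, RPL26L1, RPL39L and RPS27L, and the 3 called lower were RPL10, RPLP0 and RPS14. The median difference was -0.32. All CRC-MPS CM libraries were below all Control libraries in 56 of the 66, against 4406 of all 10005 listed genes. The aminoacyl-tRNA synthetases were called higher in 3 of 17 and lower in 1, near or under the share of all listed genes.

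Genes of ATF4 and of the endoplasmic reticulum moved in both directions. The list of ATF4 targets and unfolded protein response genes had 8 of 21 called higher and 7 lower. SDF2L1, a cofactor of the chaperone BiP, stood at 59, 58.4 and 64.8 TPM with CRC-MPS CM, against 22.4, 20.1 and 23.5 TPM in Control, and CRELD2, a secreted stress protein, at 41.5, 40.7 and 47.2 TPM with CRC-MPS CM, against 19.3, 17.7 and 18.3 TPM in Control. HSP90B1, the HSP90 of this organelle, averaged 866 ± 55.3 TPM with CRC-MPS CM and 388 ± 14.9 TPM in Control, and the disulfide isomerase PDIA4 averaged 372 ± 23.6 TPM with CRC-MPS CM and 189 ± 8.9 TPM in Control. All were above Control in every library. In contrast, the stress-induced regulator SESN2 stood at 13.5, 16.8 and 18.1 TPM with CRC-MPS CM, against 33.1, 53.7 and 46.9 TPM in Control, CHAC1, which degrades glutathione, at 25.4, 28.5 and 28 TPM with CRC-MPS CM, against 53.3, 81.9 and 68.4 TPM in Control, and DDIT4, an inhibitor of mTORC1, averaged 114 ± 13.6 TPM with CRC-MPS CM and 270.4 ± 64 TPM in Control. Every library with CRC-MPS CM was below every Control library in these 3. Control replicate 1 was the lowest of its group in 14 of 21 genes of this list. Amino acid and sugar carriers were called lower in 5 of 17 (29.4%) and higher in 1 (5.88%). SLC1A4, a carrier of serine and alanine, averaged 8.51 ± 0.485 TPM with CRC-MPS CM and 28.3 ± 5.88 TPM in Control, and SLC5A1, the sodium-glucose cotransporter, averaged 5.9 ± 0.756 TPM with CRC-MPS CM and 29 ± 5.74 TPM in Control. SLC38A5, a carrier of glutamine and other neutral amino acids, averaged 75.9 ± 7.45 TPM with CRC-MPS CM and 31.1 ± 4.56 TPM in Control and was the member called higher.

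Targets of FOXO factors and genes of quiescence were mostly lower. Of 25 listed members, 14 were called lower (56%) and 1 higher. TXNIP, which binds thioredoxin and limits glucose uptake, stood at 13.3, 13.2 and 12.8 TPM with CRC-MPS CM, against 64.5, 103 and 170.2 TPM in Control. This was a fall to a fraction of the Control level in every library, with a difference of -2.90 ± 0.30 (SE) (limma, adjusted p = 0.0006). TP53INP2, an autophagy factor, averaged 3.12 ± 0.541 TPM with CRC-MPS CM and 23.4 ± 1.73 TPM in Control, PIK3IP1, an inhibitor of PI3K, averaged 0.394 ± 0.0831 TPM with CRC-MPS CM and 3.36 ± 0.669 TPM in Control, and DEPP1, a FOXO target, averaged 3.7 ± 0.448 TPM with CRC-MPS CM and 23.8 ± 2.21 TPM in Control. ULK1, the kinase that starts autophagy, averaged 9.46 ± 1.26 TPM with CRC-MPS CM and 25.8 ± 1.89 TPM in Control, and INSR, the insulin receptor, averaged 2.11 ± 0.0392 TPM with CRC-MPS CM and 5.51 ± 0.333 TPM in Control. The member called higher was TRIB2, a pseudokinase that restrains FOXO3, at 15.2, 15.8 and 15.4 TPM with CRC-MPS CM, against 5.82, 5.59 and 5.67 TPM in Control. With a pseudocount of 5 the list held 8 called lower. Of 13 listed members of the BCL2 family, 7 were called lower and none higher. BBC3 (PUMA), a BH3-only activator of cell death, averaged 15.9 ± 2.06 TPM with CRC-MPS CM and 45.9 ± 3.4 TPM in Control, BIK averaged 1.43 ± 0.148 TPM with CRC-MPS CM and 5.41 ± 1.08 TPM in Control, and BMF averaged 3.83 ± 0.692 TPM with CRC-MPS CM and 10.6 ± 1.76 TPM in Control.

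Immediate-early genes and the feedback inhibitors of ERK were not higher after 24 h of CRC-MPS CM. Of 27 listed members, 13 were called lower and none higher. FOS, a component of AP-1, stood at 18.9, 20.4 and 21.1 TPM with CRC-MPS CM, against 40.3, 47.9 and 45.5 TPM in Control, JUND at 76.5, 75.8 and 77.9 TPM with CRC-MPS CM, against 261, 255 and 252 TPM in Control and the phosphatase DUSP1 at 9.04, 10.7 and 11.3 TPM with CRC-MPS CM, against 21.2, 28.3 and 24.2 TPM in Control. No library of CRC-MPS CM reached the Control range in these genes. HBEGF, a ligand of the EGF receptor, averaged 18.4 ± 1.3 TPM with CRC-MPS CM and 39.5 ± 8.4 TPM in Control, and 4 of 10 listed genes of the EGF family were called lower with 1 called higher. Cytokine and NF-kappaB genes split into 7 called higher (33.3%) and 4 called lower (19%) of 21, the lower share near the 19.5% of all listed genes. SOCS3, the feedback inhibitor of IL6 signaling, stood at 1.57, 2.0 and 1.79 TPM with CRC-MPS CM, against 0.227, 0.212 and 0.204 TPM in Control, while IL6R, the IL6 receptor, stood at 1.35, 2.81 and 2.71 TPM with CRC-MPS CM, against 8.28, 12.7 and 9.89 TPM in Control and RELB at 11, 10.1 and 8.66 TPM with CRC-MPS CM, against 27.3, 25.6 and 24.9 TPM in Control. SOCS3 was a low gene, and its libraries with CRC-MPS CM were nonetheless all above Control. The chemokine CXCL8 averaged 23.2 ± 3.02 TPM with CRC-MPS CM and 11.4 ± 1.75 TPM in Control and was called higher, though not after centring by GC content, whereas CCL20 averaged 3.42 ± 0.339 TPM with CRC-MPS CM and 6.42 ± 0.781 TPM in Control and was called lower.

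The genes chosen for cholesterol synthesis and uptake were mostly lower. Of 24 members, all listed, 20 were called lower and none higher, with a median difference of -0.96. INSIG1, which retains the SREBP complex when sterols are ample, stood at 85.3, 86 and 89.5 TPM with CRC-MPS CM, against 260.0, 237 and 251 TPM in Control, a difference of -1.51 ± 0.07 (SE) (limma, adjusted p = 5.7e-05). The groups did not overlap. HMGCS1, which makes HMG-CoA, averaged 103 ± 6.58 TPM with CRC-MPS CM and 272 ± 22.9 TPM in Control, and SREBF2 averaged 77.6 ± 3.74 TPM with CRC-MPS CM and 139.9 ± 5.28 TPM in Control. Control replicate 1 was the highest of its group in 21 of 24 genes. NPC1, which exports cholesterol from lysosomes, was also lower, at 32.3 ± 5.54 TPM with CRC-MPS CM and 70.5 ± 6.28 TPM in Control. Among fatty acid genes 4 of 15 were called lower (26.7%) and 2 higher (13.3%), against 19.5% and 19.8% of all listed genes. ACSS2, which makes acetyl-CoA from acetate, stood at 12.9, 9.4 and 11.7 TPM with CRC-MPS CM, against 145, 126 and 126 TPM in Control, one of the largest decreases of all, and SCD, the desaturase, averaged 349 ± 1.61 TPM with CRC-MPS CM and 933 ± 24.3 TPM in Control. LPIN1, a phosphatidate phosphatase, averaged 9.78 ± 1.05 TPM with CRC-MPS CM and 39.7 ± 8.34 TPM in Control.

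SREBF2 is shown because its own promoter was the only one of this list with the sterol regulatory element searched, TCACNCCAC on both strands, 1 of 23 promoters (4.35%), against 1.13% of all promoters. A CCAAT box stood in 18 of the 23 (78.3%, against 34.6%). The SREBF2 window is chr22:41832855-41833154, plus strand, with the match in capitals.
SREBF2: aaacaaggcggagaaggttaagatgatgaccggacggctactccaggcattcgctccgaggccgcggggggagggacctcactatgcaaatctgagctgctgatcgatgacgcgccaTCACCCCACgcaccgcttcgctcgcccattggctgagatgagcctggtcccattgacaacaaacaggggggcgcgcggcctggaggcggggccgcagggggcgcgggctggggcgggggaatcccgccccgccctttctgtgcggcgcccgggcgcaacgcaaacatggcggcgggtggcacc

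Interferon-stimulated genes included the largest decreases. All 34 members were listed, 32 were called lower and none higher, and the median difference was -1.92. OAS2, an activator of the RNase that degrades viral RNA, stood at 0.639, 0.831 and 0.853 TPM with CRC-MPS CM, against 25.3, 47.5 and 47 TPM in Control, a difference of -4.47 ± 0.22 (SE) (limma, adjusted p = 6.0e-05). IFI6, a membrane protein that protects against flaviviruses, stood at 8.47, 5.39 and 6.29 TPM with CRC-MPS CM, against 109.5, 189 and 188 TPM in Control, and IFI27 at 34.4, 32.2 and 28.6 TPM with CRC-MPS CM, against 481, 817 and 791 TPM in Control. Control libraries exceeded CRC-MPS CM libraries many times over in these genes. OAS1, of the same family as OAS2, stood at 24.1, 17.5 and 19.4 TPM with CRC-MPS CM, against 149.9, 210.2 and 191 TPM in Control, MX2, a GTPase against retroviruses, at 0.864, 1.15 and 1.11 TPM with CRC-MPS CM, against 11.3, 22.8 and 24.7 TPM in Control, and IFIT1, which binds viral RNA, at 4.51, 4.94 and 4.93 TPM with CRC-MPS CM, against 30.8, 56 and 55.4 TPM in Control. Control replicate 1 was the lowest of its group in 33 of the 34 genes, and the summed level was 520.3 to 552.3 TPM with CRC-MPS CM, against 1813, 2828 and 2712 TPM in Control replicates 1, 2 and 3. Without Control replicate 1 the number called lower was 33. IFITM1, which blocks viral entry, stood at 4.72, 0.276 and 0.159 TPM with CRC-MPS CM, against 29.2, 34.9 and 32.3 TPM in Control, where CRC-MPS CM replicate 1 was above the other libraries of its group but below all of Control. Genes of antigen presentation were called lower in 5 of 10 and higher in none. TAP1, the peptide transporter, averaged 5.65 ± 0.828 TPM with CRC-MPS CM and 21.7 ± 4.36 TPM in Control, and PSMB9, an immunoproteasome subunit, averaged 1.7 ± 0.201 TPM with CRC-MPS CM and 6.45 ± 2.37 TPM in Control.

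IFI6 is shown for the interferon response element, GAAANNGAA on both strands. The letters were found in 24 of 35 promoters of this list (68.6%, from 19 of 25 genes), against 8.11% of all promoters. The window is chr1:27672143-27672442, minus strand, with its 3 matches in capitals.
IFI6: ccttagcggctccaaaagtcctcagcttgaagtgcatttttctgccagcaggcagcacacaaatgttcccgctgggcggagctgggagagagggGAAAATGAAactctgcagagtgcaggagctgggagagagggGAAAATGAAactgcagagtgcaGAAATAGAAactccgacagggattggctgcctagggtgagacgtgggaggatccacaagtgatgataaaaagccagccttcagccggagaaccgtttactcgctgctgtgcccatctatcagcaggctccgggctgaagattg

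Some targets of NRF2 were among the largest increases. Of 20 listed NRF2 targets, 12 were called higher and none lower. GCLM, the modifier subunit of the enzyme that limits glutathione synthesis, stood at 91.3, 104 and 103 TPM with CRC-MPS CM, against 29.5, 27.6 and 29.5 TPM in Control. This was a clear separation, with a difference of 1.75 ± 0.08 (SE) (limma, adjusted p = 5.7e-05). The reductase AKR1B10 stood at 310.1, 304 and 278 TPM with CRC-MPS CM, against 84, 55.1 and 68 TPM in Control. Of the AKR1C reductases on chromosome 10, which act on steroids and prostaglandins, AKR1C2 stood at 105, 89 and 86.6 TPM with CRC-MPS CM, against 7.23, 6.32 and 10.6 TPM in Control, while AKR1C1 averaged 165 ± 24.9 TPM with CRC-MPS CM and 28.2 ± 5.04 TPM in Control. AKR1C3 averaged 264 ± 18.7 TPM with CRC-MPS CM and 45.8 ± 8.45 TPM in Control. Near-identical copies share reads in this family, so the level of each member is uncertain. NQO1, a classical target, was not called, at 831 ± 19.7 TPM with CRC-MPS CM and 563 ± 26.9 TPM in Control. UGT1A6, a glucuronosyltransferase, stood at 99.4, 101 and 96.3 TPM with CRC-MPS CM, against 14.8, 16.7 and 20.2 TPM in Control. It was the only one of that family among the 15 largest increases of genes averaging at least 10 TPM, clone and locus names left out. The UGT1A genes share their last exons, so they are not independent of each other, and in the wider list of conjugation enzymes 9 of 23 were called higher and 5 lower, and 9 and 3 after GC centring. PLAC8 was also among the 15 largest increases so ranked, at 25.4 ± 1.37 TPM with CRC-MPS CM and 3.43 ± 1.05 TPM in Control. So was TCN1, which binds vitamin B12, at 33.1 ± 2.95 TPM with CRC-MPS CM and 5.15 ± 0.828 TPM in Control.

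GCLM is shown for the antioxidant response element, TGACNNNGC on both strands. The letters were present in 5 of 16 promoters of NRF2 targets (31.2%), against 13.3% of all promoters. The window is chr1:93909381-93909680, minus strand, with the match in capitals.
GCLM: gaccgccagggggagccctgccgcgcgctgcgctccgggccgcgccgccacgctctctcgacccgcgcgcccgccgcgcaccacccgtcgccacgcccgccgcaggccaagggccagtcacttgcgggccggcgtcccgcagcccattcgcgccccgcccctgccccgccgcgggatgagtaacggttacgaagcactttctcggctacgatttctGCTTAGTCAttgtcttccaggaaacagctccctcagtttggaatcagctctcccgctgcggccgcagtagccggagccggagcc

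Markers of intestinal differentiation were mostly lower. Of 23 listed members, 14 were called lower and 4 higher. CDX2, a transcription factor of intestinal identity, stood at 3.2, 3.08 and 2.58 TPM with CRC-MPS CM, against 9.55, 11.9 and 11.2 TPM in Control. KRT20, a keratin of mature colonocytes, stood at 549, 547 and 550.4 TPM with CRC-MPS CM, against 1129, 1202 and 1123 TPM in Control, and MUC2, the gel-forming mucin of goblet cells, at 1.85, 1.81 and 1.39 TPM with CRC-MPS CM, against 10.3, 7.85 and 11.9 TPM in Control. Each was lower in every library with CRC-MPS CM. FABP1, a fatty acid binding protein of enterocytes, averaged 3.59 ± 0.539 TPM with CRC-MPS CM and 15.8 ± 6.47 TPM in Control, and FCGBP, a mucus protein of goblet cells, averaged 1.51 ± 0.275 TPM with CRC-MPS CM and 9.86 ± 2.82 TPM in Control. The members called higher were MUC1, a membrane mucin, at 5.19 ± 0.305 TPM with CRC-MPS CM and 0.731 ± 0.145 TPM in Control, CEACAM6 at 33.3 ± 2.49 TPM with CRC-MPS CM and 9.49 ± 0.267 TPM in Control, TFF2, a trefoil peptide better known from the stomach, at 4.64 ± 1.17 TPM with CRC-MPS CM and 1.01 ± 0.29 TPM in Control, and CEACAM5 at 11.2 ± 0.508 TPM with CRC-MPS CM and 4.4 ± 0.506 TPM in Control. Of 12 colon epithelial markers, all listed, 7 were called lower (58.3%, against 19.5% of all listed genes) and none higher. Their median difference was -0.7. EPCAM and KRT8 were present in all libraries. EPCAM averaged 666 ± 16.6 TPM with CRC-MPS CM and 535 ± 38.4 TPM in Control. KRT8 averaged 4173 ± 393 TPM with CRC-MPS CM and 5421 ± 345 TPM in Control. CDH17, an intestinal cadherin, averaged 1.59 ± 0.134 TPM with CRC-MPS CM and 5.13 ± 1.33 TPM in Control and was called lower.

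Wnt and stem cell genes did not move as a group, with 1 called higher and 4 lower of 16 listed, of which the share called lower was near the 19.5% of all listed genes. LGR5, the receptor that marks intestinal stem cells, stood at 6.93, 6.21 and 6.1 TPM with CRC-MPS CM, against 1.85, 1.29 and 2.24 TPM in Control and was the member called higher, with a difference of 1.42 ± 0.13 (SE) (limma, adjusted p = 0.00036). NKD1, a feedback inhibitor of Wnt, averaged 0.636 ± 0.197 TPM with CRC-MPS CM and 2.6 ± 0.818 TPM in Control, and was called lower. Among genes of junctions and keratins, 7 of 24 were called lower and none higher, and CDH1, E-cadherin, averaged 132 ± 2.95 TPM with CRC-MPS CM and 231 ± 10.7 TPM in Control. The list of epithelial-mesenchymal transition and matrix had 3 of 17 called higher and 8 lower, and 3 and 5 after GC centring, with a median difference of -0.58 before it and -0.27 after it. SNAI1, a repressor of CDH1, stood at 5.55, 5.07 and 4.67 TPM with CRC-MPS CM, against 1.53, 2.07 and 3.06 TPM in Control, and TNC, the matrix protein tenascin C, at 5.58, 5.51 and 4.78 TPM with CRC-MPS CM, against 0.974, 2.02 and 1.14 TPM in Control. Both were low genes whose CRC-MPS CM libraries were all above Control. MMP14, a membrane-bound matrix protease, averaged 0.875 ± 0.0964 TPM with CRC-MPS CM and 5.47 ± 0.361 TPM in Control, and PLAUR, the urokinase receptor, averaged 44.4 ± 3.02 TPM with CRC-MPS CM and 123 ± 22.7 TPM in Control, both called lower. BMP2 averaged 1.3 ± 0.225 TPM with CRC-MPS CM and 5.68 ± 0.62 TPM in Control and TGFB1 averaged 9.66 ± 2.0 TPM with CRC-MPS CM and 23.5 ± 3.97 TPM in Control, also called lower. BCCIP, which binds BRCA2, averaged 193 ± 10.2 TPM with CRC-MPS CM and 57.9 ± 4.0 TPM in Control, and NNMT, the nicotinamide methyltransferase, averaged 102 ± 3.33 TPM with CRC-MPS CM and 81.7 ± 8.29 TPM in Control and was not called. CENPE, TRIB2, OAS1, SNAI1, BCCIP and NNMT were measured by qPCR in the study. That qPCR set CRC-MPS CM against CM of ESC, whereas the values here are against Control. The study chose these genes on such samples, so they are not independent evidence of a direction.

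Cytoskeletal genes did not share a direction. TUBA1A, an alpha tubulin, stood at 10.1, 6.61 and 7.35 TPM with CRC-MPS CM, against 89.1, 75.8 and 69.5 TPM in Control, one of the largest decreases, whereas TUBA4A averaged 197 ± 24.9 TPM with CRC-MPS CM and 71 ± 5.93 TPM in Control and TUBA1B averaged 1712 ± 130.5 TPM with CRC-MPS CM and 954 ± 130.0 TPM in Control, both called higher. Tubulin genes are near-identical over much of their length, and how reads were divided between them was not given. COTL1, an actin-binding protein, averaged 210.1 ± 8.38 TPM with CRC-MPS CM and 45.4 ± 1.86 TPM in Control, the largest increase among actin genes. Of these 3 of 24 were called higher (12.5%) and 5 lower (20.8%), near or under the shares of all listed genes, and 4 and 2 after GC centring.

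Genes of glycolysis and of the hypoxia response had 1 called higher (4.55%) and 7 lower (31.8%) of 22, against 19.8% and 19.5% of all listed genes. NDRG1, a gene induced by hypoxia, stood at 37.1, 41.1 and 51.4 TPM with CRC-MPS CM, against 162, 250.2 and 179.8 TPM in Control, and ALDOC, an aldolase isoform, averaged 15.7 ± 3.24 TPM with CRC-MPS CM and 63.5 ± 6.04 TPM in Control, both lower. BNIP3L, a mitophagy receptor, averaged 7.89 ± 0.735 TPM with CRC-MPS CM and 20.2 ± 3.07 TPM in Control. GPI, of the upper glycolytic pathway, averaged 414 ± 36.8 TPM with CRC-MPS CM and 239 ± 7.12 TPM in Control and was called higher. Nuclear genes of oxidative phosphorylation had 1 of 17 called, higher. Lysosome and autophagy genes had 2 called higher (7.14%) and 7 lower (25%) of 28. WIPI1, of the early autophagosome, averaged 11.8 ± 1.86 TPM with CRC-MPS CM and 25.1 ± 3.53 TPM in Control.

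Markers of other cell types were looked up in the table, in which a marker that is not listed is not shown to be low or absent. Of 12 adipocyte markers 4 were listed, 1 called higher and 3 lower, and their summed level of 130.0 to 135.3 TPM with CRC-MPS CM, against 97.53 to 105.8 TPM in Control, was mostly PPARG, which colonocytes express and which was the marker called higher, at 123 ± 2.75 TPM with CRC-MPS CM and 77.9 ± 3.43 TPM in Control (not called after GC centring). The lipid droplet proteins PLIN4 and CIDEC and the glycerol phosphate dehydrogenase GPD1 were called lower. PLIN4 averaged 2.01 ± 0.17 TPM with CRC-MPS CM and 6.59 ± 2.13 TPM in Control, and GPD1 averaged 6.03 ± 0.736 TPM with CRC-MPS CM and 14.3 ± 1.36 TPM in Control. Of 13 stromal markers 3 were listed and none called, with a summed level of 10.49 to 12.32 TPM with CRC-MPS CM, against 14.02 to 15.43 TPM in Control. Of 13 leukocyte markers 5 were listed, none called higher and 2 lower. Their sum, 1681 to 1717 TPM with CRC-MPS CM, against 1965 to 2255 TPM in Control, was mostly LYZ, which was not called. CD68, a lysosomal protein abundant in macrophages, averaged 10.9 ± 0.37 TPM with CRC-MPS CM and 23.9 ± 1.56 TPM in Control, and CD79A, of the B cell receptor, averaged 0.198 ± 0.109 TPM with CRC-MPS CM and 0.944 ± 0.344 TPM in Control, the markers called lower. CD79A was not called after GC centring, though 2 of the 5 listed leukocyte markers were called lower there. CD163, a macrophage receptor, was not called, at 0.309, 1.55 and 1.55 TPM with CRC-MPS CM, against 0.0361, 0.253 and 0.202 TPM in Control, where all CRC-MPS CM libraries were above Control. Of 10 endothelial markers TEK alone was listed, at 0.217 to 0.306 TPM with CRC-MPS CM, against 0.0316 to 0.0881 TPM in Control. The part of these cell types in the other results was not tested. In bulk libraries a change in the share of cells in a state and a change of RNA per cell cannot be told apart.

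**Figure D3:**
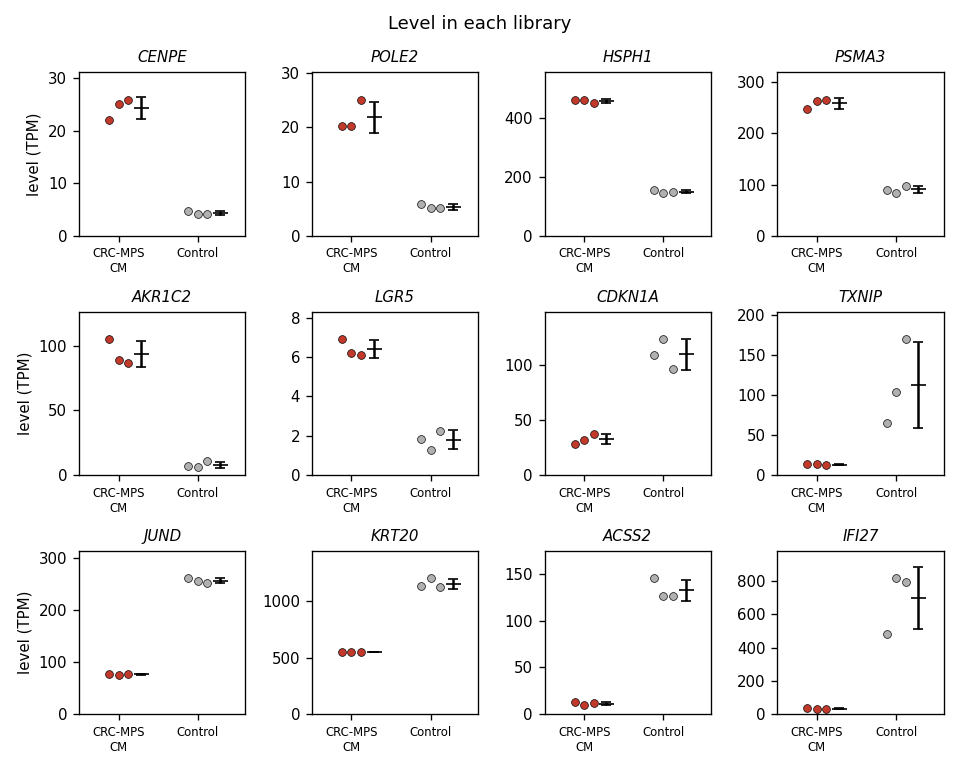
Points give the level (TPM, linear axis from 0) of 12 genes in each library, CRC-MPS CM in red on the left and Control in grey on the right of each panel, with a dash and bars at the mean and SD (n = 3 each). The groups do not overlap in any panel, and Control replicate 1 is the lowest of its group for IFI27.

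The share of called genes changed with level and with base composition. Among genes averaging 10 to 100 TPM, 22.9% were called higher and 14.9% lower, and among those at 1 to 10 TPM, 17.4% and 36.1%. Genes called higher summed to 157964 TPM with CRC-MPS CM, against 85556 TPM in Control, and genes called lower to 66375 TPM, against 121751 TPM. Among protein-coding genes the median GC content was 42.5% in those called higher, 55.3% in those called lower and 48.7% in those not called. In the fifth of genes with the lowest GC content 37.9% were called higher and 5.93% lower, and in the fifth with the highest 7.78% and 32.9%. Differences were therefore also centred at 0 along GC content, an alternative added after the data were seen. Then 1118 of the genes called higher and 1210 of those called lower were called in the same direction, none turned, and 674 and 513 others were called anew. The replication list kept 33 called higher, the kinesin and centromere list 24, the NRF2 list 12, and 32 interferon and 19 cholesterol genes were called lower. DNA repair went to 18 called higher and nuclear transport to 12. Glycolytic and hypoxia genes had 5 called higher and 9 lower after centring, and oxidative phosphorylation had 5 called higher. Immediate-early and ERK feedback genes then had 1 called higher and 10 lower. The BCL2 family had 2 called higher and 4 lower, lysosome and autophagy genes 6 and 6, and the EGF family 0 and 1. The part of base composition in these differences was not tested further. By chromosome, 8.01% of listed genes of chromosome 19, which is GC-rich, were called higher and 24.5% lower, and 27.7% and 10.2% of those of chromosome 18.

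**Figure D4:**
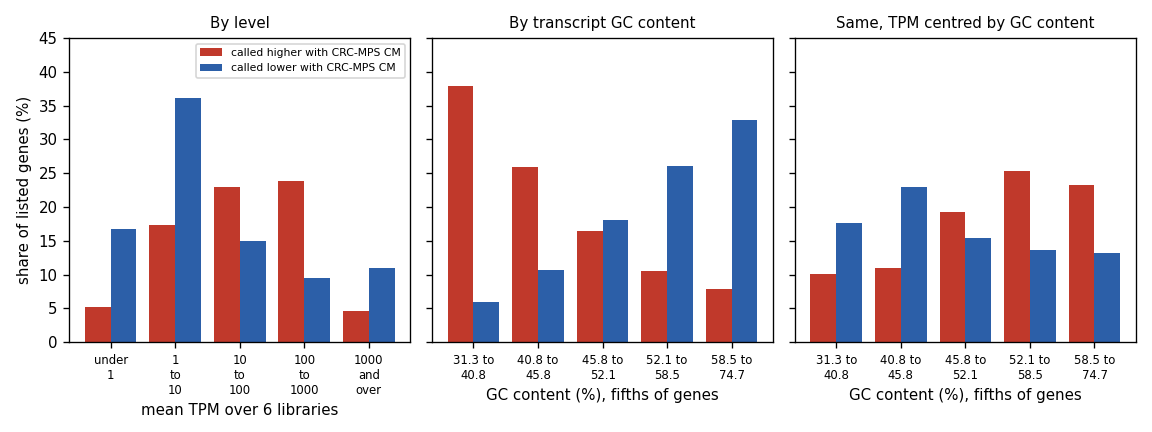
Bars give the percent of listed genes called higher (red) and lower (blue) with CRC-MPS CM, by mean TPM over the 6 libraries on the left, by transcript GC content in the middle, and by GC content after centring on the right. Before centring the share called higher is 37.9% in the lowest and 7.78% in the highest bin of GC content, and the share called lower 5.93% and 32.9%; after centring the higher share is 10.1% and 23.3% in these bins.

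Across all listed genes with a promoter in the table, motif shares differed less than within the lists. The E2F site was found in 13.4% of promoters of genes called higher, 6.46% of genes called lower and 9.22% of genes not called. For the cell cycle homology region these shares were 15.9%, 7.72% and 10.3%, and for the CCAAT box 43.1%, 29.8% and 33.6%. For the E-box CACGTG they were 10.1%, 5.71% and 9.11%. The interferon response element was found in 6.86%, 7.21% and 6.55%, and the sterol regulatory element in 0.929%, 1.75% and 1.04%. Over all promoters the shares were 6.89% for the E2F site, 15.2% for the cell cycle homology region and 34.6% for the CCAAT box. For the E-box, the interferon response element and the sterol regulatory element the shares over all promoters were 7.26%, 8.11% and 1.13%. Different motifs could overlap and were counted separately, and a match is only a description of the letters.

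**Figure D5:**
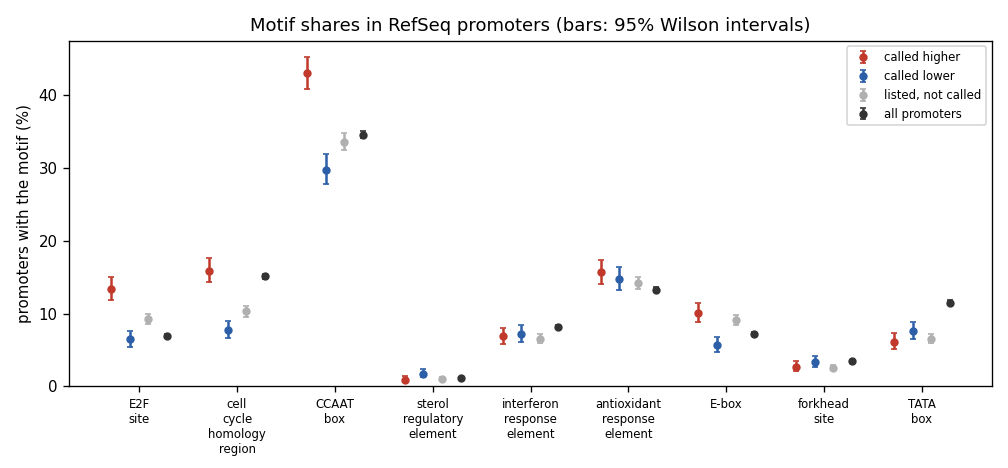
Points give the percent of promoters that hold each motif, for genes called higher, called lower and not called with CRC-MPS CM and for all promoters, with 95% Wilson intervals, which cover counting error only. The E2F site (13.4%, 6.46% and 9.22%) and the CCAAT box (43.1%, 29.8% and 33.6%) were more frequent among genes called higher than among genes called lower.

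The series also holds HT29 cells given CM of ESC alone, which was compared with the same Control libraries, so the comparisons share their controls and only values are set side by side here. Between CRC-MPS CM and ESC CM, a table of 2831 named genes, 13 genes were called higher and 2 lower. IFI27 averaged 31.9 TPM with CRC-MPS CM and 141 TPM with ESC CM, and IFI6 averaged 6.72 TPM with CRC-MPS CM and 20.96 TPM with ESC CM. These were the 2 genes called lower, with differences of -2.12 ± 0.08 and -1.52 ± 0.15 (SE, CRC-MPS CM minus ESC CM, 3 libraries each). TNC averaged 5.29 TPM with CRC-MPS CM and 1.69 TPM with ESC CM, SNAI1 averaged 5.08 TPM with CRC-MPS CM and 1.32 TPM with ESC CM, and SOCS3 averaged 1.78 TPM with CRC-MPS CM and 0.421 TPM with ESC CM. These 3 were called higher, with differences of 1.23 ± 0.09, 1.39 ± 0.08 and 0.97 ± 0.09 (SE; limma within the table of both media, adjusted p = 0.013, 0.0038 and 0.030). CENPE was not listed between the media, and LGR5 (6.4 TPM with CRC-MPS CM, against 9.07 TPM with ESC CM) and TRIB2 (15.5 TPM with CRC-MPS CM, against 8.65 TPM with ESC CM) were listed but not called. BCCIP was also listed but not called (193 TPM with CRC-MPS CM, against 171 TPM with ESC CM). Against Control, CENPE averaged 20.6 TPM with ESC CM, a difference of 2.015, beside 2.248 with CRC-MPS CM. ACSS2 averaged 11.6 TPM with ESC CM (-3.409, beside -3.444 with CRC-MPS CM) and COTL1 188 TPM (2.032, beside 2.185). CDKN1A averaged 18.2 ± 7.16 TPM (SD) with ESC CM, a difference from Control of -2.601, beside -1.726 with CRC-MPS CM. Between the media CDKN1A was listed but not called.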

How the data were processed

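Transcript levels of HT29 cells were compared between 3 libraries with CRC-MPS CM and 3 Control libraries, whose columns were matched to samples by name. Per the submitters' processing notes, STAR 2.6.1d, kallisto 0.46.0, DESeq2 and build hg38 were used, in an order that is not stated. The annotation and the version of DESeq2 were not given in the sources used here. Levels in the authors' deposited table fit TPM. The authors also deposited a mean normalized signal, a log2 fold change with its standard error, a Wald score, a p-value and an adjusted p-value, none of which was used. Depth is unknown, so no counting interval was computed.

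Differences were tested with limma 3.58.1 (R 4.3.3) on log2(TPM + 1), and p was adjusted by Benjamini-Hochberg as if 60000 genes had been tested, because only genes below p = 0.05 in the authors' test had been kept in the table. Gene positions and GC content came from GENCODE 29, and promoters from RefSeq (GRCh38.p14). A simulated table was used to test the limma step. Alternatives were pseudocounts, level filters, thresholds, scaling, each library left out, a replicate block and GC centring. Gene lists and members were chosen with earlier results of these data known. Named genes were the qPCR genes, the 15 with the largest change each way, up to 4 called members of each list each way, and markers. The 15 were ranked among called genes with a mean of at least 10 TPM and no overlap between the groups. Clone and locus names were left out, so some genes with larger changes are not among them. GCLM, SREBF2, NQO1, CDT1, GINS4 and the list members given without a value were added after their values were seen. A count model was not run on these TPM values. The authors' comparisons of the same contrast were neither printed nor used. Some members of the lists are not reported here by name.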

Additional observations from a re-analysis of the deposited data

How the results depend on the processing

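No result that was called turned its direction under any alternative run. The number of called genes (3934) was 2363 with a pseudocount of 5, 2428 with a mean of at least 10 TPM (1513 higher, 915 lower), 338 with Bonferroni adjustment, 1296 with a minimum fold of 2 and 6900 with no minimum fold. The number of called list members (469) was 77 with Bonferroni adjustment and 221 with a minimum fold of 2. Leaving out each library in turn gave 3667 to 3991 called genes and 453 to 473 called list members. The GC centring, added after the data were seen, gave 3515. A pseudocount of 0.1 and the other settings stayed within 1.5 times of 3934, and median-of-ratios scaling gave 1806 higher and 2115 lower.

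The replicate numbers did not pair the samples (correlations of deviations 0.093, -0.045 and 0.179), and with the replicate block 3925 genes were called. EGF lost its call there. Of 293 named genes, 233 were called, 204 of these whichever library was left out, and 189 after GC centring. With the motif window cut to the bases before the start, 22 of 36 motif shares left their counting interval, and the E2F share of genes called higher was 11%. Limits are that the table is filtered on the authors' p and that depth is unknown, so that the counting error of low genes cannot be given.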

Other observations

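Genes of several families lay outside the lists. Of 212 listed ZNF zinc finger genes, 45 were called higher (21.2%) and 16 lower (7.55%) with CRC-MPS CM, and after GC centring 16 and 17. Of all listed genes 19.8% were called higher and 19.5% lower. All 21 listed protocadherin genes were below Control in every library, as were 4406 of all 10005 listed genes. Of the 21, 5 were called lower (23.8%), near the share of all listed genes. Antisense RNA genes were called higher in 16 (11.9%) and lower in 49 (36.6%) of 134. Long intergenic RNA genes were called higher in 20 (19.8%) and lower in 28 (27.7%) of 101. Whether counting used strand was not given. Of 20 listed histone genes 7 were called higher (35%) and 5 lower (25%), and their copies share reads. Of 9 listed small nucleolar RNA genes 8 were called higher. The levels of such short transcripts are uncertain, and SNORD11 was listed at 0 in all Control libraries.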
